A study of Mus musculus with 8 samples.

Results

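The mitochondrial respiratory chain genes were taken by gene symbol from an RNA-seq table of the mouse incisor: symbols that open with Ndufa, Ndufb, Ndufc, Ndufs or Ndufv and a number, with Uqcr, or with Cox and a number of complex IV subunits, and *Sdha* to *Sdhd*, without assembly factors. Of the 23358 rows of the table, 68 had such a symbol, and 67 of them encode subunits of the chain. The remaining match, *Cox4nb*, is an older symbol of *Emc8*, a subunit of the endoplasmic reticulum membrane complex, and was left out of every count. The 67 genes were 37 of complex I, 4 of complex II, 8 of complex III, 15 of complex IV, and 3 muscle-type isoforms of complex IV subunits (*Cox6a2*, *Cox7a1* and *Cox8b*) that were kept apart. Values are RPKM, reads scaled to gene length and library total, so that levels of different genes can be set side by side per length.

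A gene was tested where 2 or more of the 8 libraries reached an RPKM of 1, which kept 64 of the 67 genes and 14148 genes in all. The untested members were *Cox7b2* and *Cox8c*, testis-type isoforms that were at or under 0.125 RPKM in every library, and *Ndufs5*, a small complex I subunit at 0.146 to 0.3996 RPKM. The *Ndufs5* row overlapped that of *BC002163* by 5452 bases, so its level is uncertain. Rows of some tested members overlapped others as well, among them *Cox4i2* with *Mir3110* (10865 bases) and *Ndufs7* with *Bc1* (7341 bases). The *Mir3110* row also overlapped *Ndufs3* (10086 bases), which starts at chr2:90894636, while *Cox4i2* starts at chr2:152754173. The listed positions of *Mir3110* thus span far more than 1 short gene. The effect of such overlaps on the values was not tested. *Cox6a2* and *Cox8b* passed this filter through their CLT libraries, since *Cox6a2* was under 1 RPKM in all 4 CLH libraries (1 to 17 reads) and *Cox8b* in 3 of them (3 to 12 reads in the 4). Of the 64 genes tested, 58 are widely expressed subunits and 6 are isoforms known from few tissues.

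The chain lies in the inner mitochondrial membrane. Complex I (NADH dehydrogenase, the Nduf genes) and complex II (succinate dehydrogenase, the Sdh genes, which is also an enzyme of the citric acid cycle) pass electrons to ubiquinone, complex III (the Uqcr genes) passes them to cytochrome c, and complex IV (cytochrome c oxidase, the Cox genes) to oxygen. Some complex IV subunits have alternative isoforms: *Cox6a2*, *Cox7a1* and *Cox8b* are known from heart and skeletal muscle, and the latter pair also from brown fat, *Cox6b2* from testis, and *Cox4i2* from lung and cells at low oxygen. *Ndufa4l2* is a relative of *Ndufa4* induced by hypoxia, and *Ndufa4* itself, kept under complex I by its symbol, is now counted to complex IV. Ameloblasts, the epithelial cells that secrete and mature enamel, are rich in mitochondria.

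Tissue came from the cervical loop, the growing end of the incisor, in mice of 4 weeks of age on a C57BL/6 background. The head region (CLH) contains stem cells of the dental epithelium and the tail region (CLT) contains their progenies. The cKO mice carried *Med1* alleles with floxed exons 8 to 10 and Cre under the *Krt14* promoter, which is active in epithelial cells and leaves *Med1* intact in other cells, and the Ctrl mice were littermates without Cre. The 4 groups (Ctrl CLH, cKO CLH, Ctrl CLT and cKO CLT) had 2 libraries each, by the study's account from 2 litters, and both values are given in place of a mean and SD. These were pieces of bulk tissue, in which fewer cells of a type and less RNA per cell cannot be told apart.

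The libraries held 26590000 to 34420000 reads. In CLH, *Med1* was at 7.71 and 9.12 RPKM in Ctrl and at 7.10 and 7.04 in cKO. In CLT it was at 4.83 and 8.71 RPKM in Ctrl and at 9.15 and 8.96 in cKO. It was thus not lower in the CLT libraries labelled cKO, but a value over the whole gene does not show the loss of exons 8 to 10, and the group names below are those of the labels. Epithelial *Krt14* was at 178 to 649 RPKM in every library, whereas the summed level of the secretory ameloblast markers *Amelx*, *Ambn*, *Enam* and *Mmp20* was 79100 and 30270 RPKM in Ctrl CLT, against 10.6 and 5.83 in cKO CLT. The 2 Ctrl CLT libraries stood apart from each other. The summed level of 15 skeletal muscle markers was 1136 RPKM in Ctrl CLT 1 against 85.4 in Ctrl CLT 2, and that of 5 hair markers 2693 against 9.80, while cKO CLT had 3018 and 3272 for muscle and 7897 and 8679 for hair. A gene differed by more than 1.5-fold between the Ctrl CLT libraries in 34.6% of all genes tested and in 0.763% to 1.12% within the other groups. For cKO CLT against Ctrl CLT, the medians of the complexes and the main genes are therefore given also against each Ctrl CLT library.

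To show what the isoforms that moved most do and do not share with their widely expressed partners, RefSeq promoters were read for 2 pairs of complex IV genes, from 250 bases before the annotated start to 50 after it (GRCm38.p6, the minus strand in each case). *Cox6b2* lies at chr7:4753045-4753344, *Cox6b1* at chr7:30626065-30626364, *Cox8b* at chr7:140900397-140900696 and *Cox8a* at chr19:7217567-7217866. Capitals mark a TATA motif (TATAAA) or a motif of ETS factors such as GABP (CCGGAAG, read on the other strand as CTTCCGG).
Cox6b2: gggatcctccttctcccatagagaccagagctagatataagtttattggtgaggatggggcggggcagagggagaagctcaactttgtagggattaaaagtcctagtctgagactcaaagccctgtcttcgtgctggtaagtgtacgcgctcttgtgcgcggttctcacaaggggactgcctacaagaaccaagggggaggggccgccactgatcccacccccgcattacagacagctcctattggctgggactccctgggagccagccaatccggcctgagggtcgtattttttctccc
Cox6b1: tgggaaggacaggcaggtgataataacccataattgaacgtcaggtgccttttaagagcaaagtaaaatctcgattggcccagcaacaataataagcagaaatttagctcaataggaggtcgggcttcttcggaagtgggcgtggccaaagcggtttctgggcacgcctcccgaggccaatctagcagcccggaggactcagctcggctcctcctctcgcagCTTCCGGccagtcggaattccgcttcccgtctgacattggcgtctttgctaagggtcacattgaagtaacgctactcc
Cox8b: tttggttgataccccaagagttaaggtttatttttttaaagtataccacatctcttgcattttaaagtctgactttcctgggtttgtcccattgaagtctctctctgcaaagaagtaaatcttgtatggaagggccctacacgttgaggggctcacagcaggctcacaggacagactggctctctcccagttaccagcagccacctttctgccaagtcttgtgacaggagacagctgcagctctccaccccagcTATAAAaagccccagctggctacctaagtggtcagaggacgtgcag
Cox8a: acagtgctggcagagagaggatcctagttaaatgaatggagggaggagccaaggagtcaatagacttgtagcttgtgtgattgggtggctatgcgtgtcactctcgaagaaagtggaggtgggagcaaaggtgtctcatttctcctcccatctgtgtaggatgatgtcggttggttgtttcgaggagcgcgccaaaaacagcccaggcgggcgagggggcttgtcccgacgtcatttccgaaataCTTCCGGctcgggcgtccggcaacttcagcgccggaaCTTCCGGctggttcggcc

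The windows of the widely expressed partners held the ETS motif, once in *Cox6b1* and at 2 places in *Cox8a*. The *Cox8b* window held 1 TATA motif, which began at base 255 of the window and so lay past the annotated start. The *Cox6b2* window held neither these motifs nor that of NRF1 (GCATGCGC). The *Cox8b* window had 2 CpG and that of *Cox8a* 19, and *Cox6b2* had 10 against 17 in *Cox6b1*. RefSeq promoters matched 53 of the 67 genes, with 55 windows. Each motif was searched on both strands (GCGCATGC for NRF1 and TTTATA for TATA on the other strand), and none of the 3 contains another. NRF1 letters were in 7 of the 55 (12.7%) and in 2.71% of all 32851 promoters, ETS letters in 11 (20%) and in 8.86%, and TATA letters in 7 (12.7%) and in 13.6%. NRF1 and GABP are known regulators of respiratory chain genes. These matches describe letters only, and say nothing of whether a factor binds.

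Chain genes were highly expressed in all 4 groups. Averaged over the libraries, the 58 widely expressed members had a median level of 85.05 RPKM, against 9.25 over all genes tested, and they are short, with a median length of 665 bases against 2758. *Uqcrh*, the hinge subunit of complex III, had the highest mean level (400.0 RPKM), followed by *Cox4i1* (302.7) and *Cox6b1* (300.7), and *Ndufa11*, an accessory subunit of complex I, the lowest of the widely expressed genes (17.1). The median level was higher from each complex to the next, at 70.5 RPKM for complex I, 89.4 for complex II, 112 for complex III and 148.9 for complex IV.

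Levels of the widely expressed members were much alike over the 4 groups. In CLH their median was 83.3 and 77.3 RPKM in the Ctrl libraries and 84.1 and 86.9 in the cKO libraries, and in CLT it was 106 and 83.6 in the Ctrl libraries and 74.7 and 80.6 in the cKO libraries. Ctrl CLT 1 was the highest library in every complex, while Ctrl CLT 2 lay within the range of the other groups in complexes I and III, above them in complex II and below them in complex IV. The chain as a whole took 0.571% and 0.543% of the reads on genes in the Ctrl libraries of CLH and 0.544% and 0.586% in the cKO libraries. In CLT these shares were 0.729% and 0.582% for Ctrl, and 0.568% and 0.588% for cKO. For 47 of the 58 genes the highest group mean was at most 1.5 times the lowest, from 1.08-fold for *Ndufb2* to 2.77-fold for *Ndufa1*. The highest group was Ctrl CLT for 40 of the 58 genes, and the lowest was Ctrl CLH for 24 and cKO CLT for 22.

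**Figure D1:**
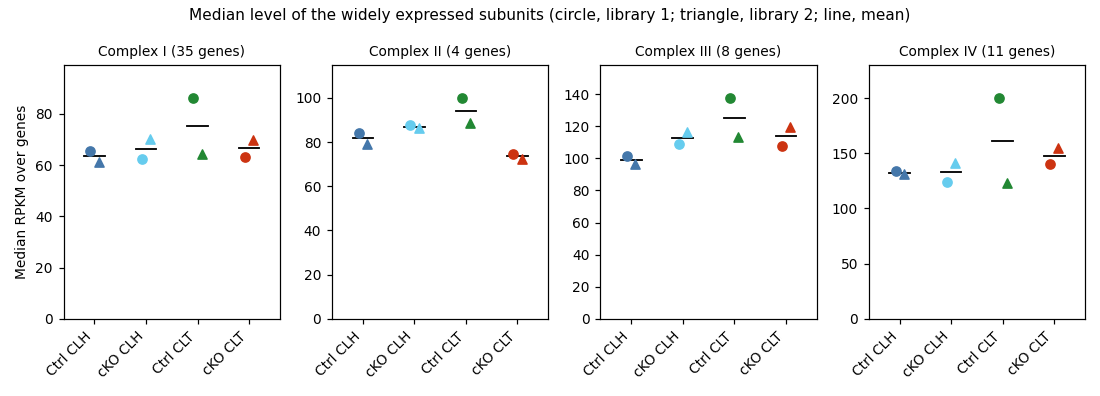
Median RPKM over the widely expressed subunits of each complex (y axis, linear from 0) in each library (circle, library 1; triangle, library 2; line, mean of both), by group. Ctrl CLT 1 is the highest library in all 4 complexes, and in complex II both cKO CLT libraries (74.7 and 72.5) are the lowest.

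The first question was whether the chain differed between cKO and Ctrl in the stem cell progenies. *Cox6b2* and *Cox4i2*, a pair of restricted complex IV isoforms, were far lower in cKO CLT, and no widely expressed subunit passed the test. *Cox6b2* was at 87.4 and 95.6 RPKM in Ctrl CLT and at 5.43 and 8.68 in cKO CLT, against 46.4 to 58.9 in the 4 CLH libraries. Both cKO CLT libraries were below every other library, 12.97-fold lower than Ctrl CLT by mean RPKM (log2 fold change of RPKM + 1, −3.55 ± 0.25 SE; limma, adjusted p = 0.0307). *Cox4i2* was at 34.8 and 34.9 RPKM in Ctrl CLT, 5.84 and 5.80 in cKO CLT, and 44.1 to 60.1 in CLH. Again both cKO CLT libraries were the lowest, 5.99-fold below Ctrl CLT (−2.40 ± 0.14; limma, adjusted p = 0.0251).

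These 2 genes were as low against Ctrl CLT 2 alone (−3.61 for *Cox6b2* and −2.40 for *Cox4i2*) as against Ctrl CLT 1 alone (−3.49 and −2.39). Both calls were lost when either cKO CLT library was left out, where limma gave adjusted p of 0.161 to 0.267. Both were also lost with voom on the recovered reads (adjusted p = 0.0575 for *Cox6b2* and 0.0577 for *Cox4i2*), and *Cox6b2* was lost without the filter on low values (limma, adjusted p = 0.0907). In cKO CLT against Ctrl CLT the levels fell together with markers of the enamel-forming cells. There 4 of 4 secretory and 4 of 4 maturation ameloblast markers were called lower. The secretory markers summed to 12480 to 14300 RPKM in CLH and to 79100 and 30270 in Ctrl CLT. From CLH to Ctrl CLT *Cox6b2* was higher as well, whereas *Cox4i2* was lower. Between the Ctrl CLT libraries, whose secretory sums differed, *Cox6b2* (87.4 and 95.6 RPKM) and *Cox4i2* (34.8 and 34.9) were nearly alike. The 5 odontoblast and bone markers summed to 2138 and 2469 RPKM in Ctrl CLT and to 377 and 472 in cKO CLT (3 of 5 called lower), and the 4 mesenchyme markers to 288 and 571, and to 143 and 146 (0 of 4 called). The part of any of these cell types in the lower *Cox6b2* and *Cox4i2* was not tested.

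Over the chain, 15 of the 64 genes were higher and 49 lower in cKO CLT, with a median log2 fold change of −0.13 against −0.01 over all genes tested. Called were 0 higher and 2 lower, where 0.0777% and 1.68% of all genes tested were called. The 2 groups did not overlap for 6 genes that were higher and 27 that were lower, against 37.2% and 35.1% of all genes tested. At an unadjusted p under 0.05 the count was 13 of the 64 genes. No share over all genes stands beside it, so it is not read as an excess. The direction of single genes depended on the scale: 23 genes were higher with median-of-ratios scaling and 10 with quantile normalization, with medians of −0.08 and −0.23.

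**Figure D2:**
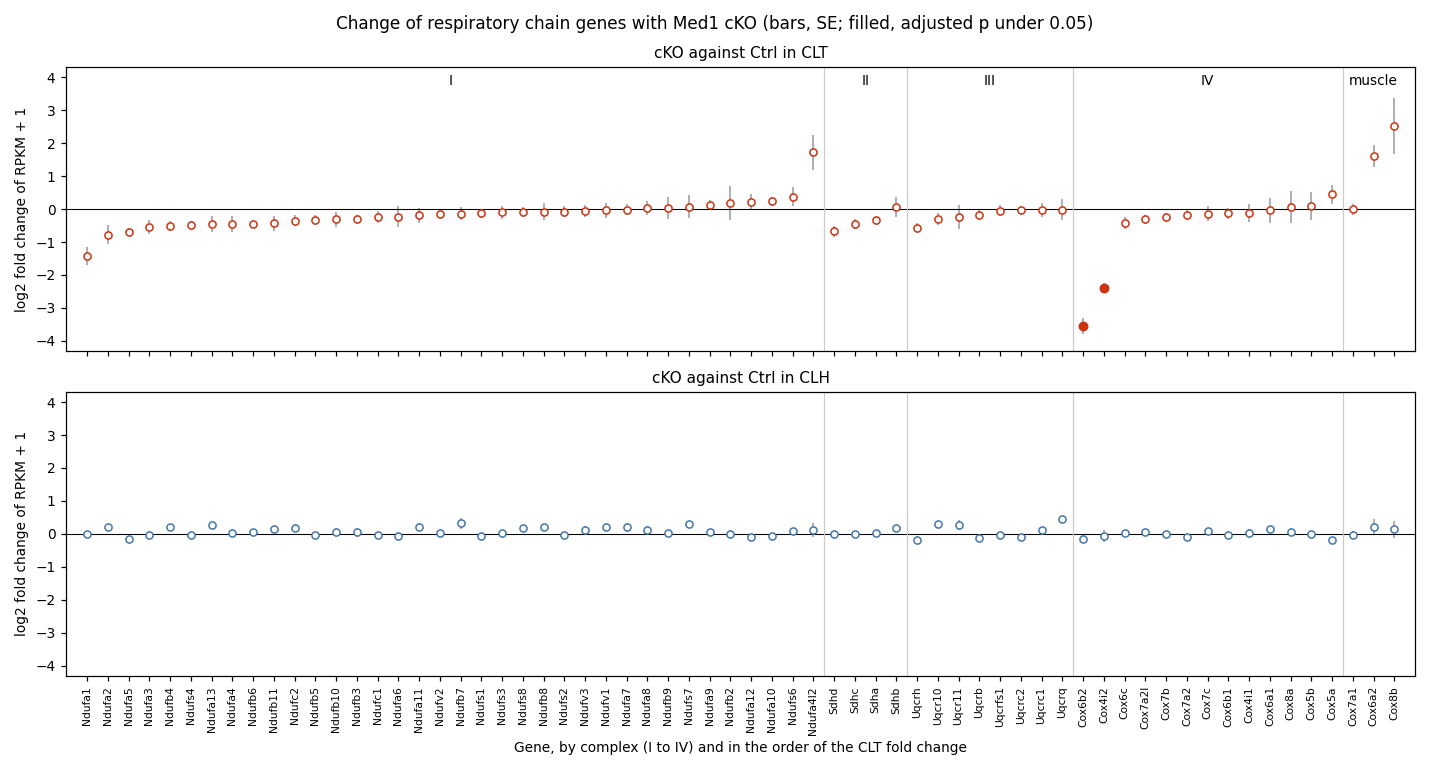
Log2 fold change of RPKM + 1 between cKO and Ctrl (y axis; bars, SE) for the 64 genes tested, by complex (x axis), in CLT (upper) and CLH (lower), with filled points past an adjusted p of 0.05. *Cox6b2* and *Cox4i2* are the filled points, and *Cox8b*, *Ndufa4l2* and *Cox6a2* lie above the rest in CLT with wide bars.

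In complex I, 27 of the 35 widely expressed subunits were lower in cKO CLT and 8 were higher (median −0.15, or −0.40 against Ctrl CLT 1 alone and −0.02 against Ctrl CLT 2 alone), and 0 were called. The 7 nuclear-encoded core subunits, which carry the flavin and the iron-sulfur clusters and bind ubiquinone, ranged from −0.15 (*Ndufv2*) to 0.08 (*Ndufs7*). The accessory subunits ranged more widely. The lowest was *Ndufa1*, a small X-linked subunit of the membrane arm, at 221 and 141 RPKM in Ctrl CLT, against 65.4 and 65.2 in cKO CLT, with 88.1 to 97.2 in CLH. Its cKO CLT values lay below, and its Ctrl CLT values above, those of every other library (−1.42 ± 0.26; limma, adjusted p = 0.0692), with −1.74 against Ctrl CLT 1 alone and −1.10 against Ctrl CLT 2. *Ndufa5* was at 86.1 and 87.9 RPKM in Ctrl CLT and at 54.6 and 52.1 in cKO CLT, and *Ndufb4* at 114 and 103.4, and at 74.7 and 77.0. For these accessory subunits too the groups did not overlap, with limma adjusted p of 0.0707 and 0.0972. The log2 fold change against Ctrl CLT 1 and Ctrl CLT 2 was −0.68 and −0.71 for *Ndufa5*, and −0.59 and −0.44 for *Ndufb4*. *Ndufs6*, a zinc-binding accessory subunit, was the highest (0.38), with cKO CLT values of 90.02 and 102.6 RPKM between or above those of Ctrl CLT (94.9 and 57.4), so that it was 0.02 against Ctrl CLT 1 and 0.73 against Ctrl CLT 2.

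Complex II had the lowest median of the 4 complexes (−0.40, or −0.42 against Ctrl CLT 1 alone and −0.36 against Ctrl CLT 2 alone), with 3 of its 4 genes lower, though 0 were called. *Sdhd*, a membrane anchor, was at 69.3 and 85.2 RPKM in Ctrl CLT and at 45.9 and 49.8 in cKO CLT, with 73.4 to 76.8 in CLH. *Sdhc*, the other anchor, was at 105.9 and 91.6 RPKM, and at 72.9 and 70.4, with 101.8 to 104.8 in CLH. *Sdha*, the flavoprotein, was at 93.6 and 97.8 RPKM, and at 76.6 and 74.6, with 82.8 to 89.96 in CLH. In these 3 genes both cKO CLT libraries were below all 6 others, with limma adjusted p of 0.0905 (*Sdhd*), 0.122 (*Sdhc*) and 0.158 (*Sdha*). Against Ctrl CLT 1 and Ctrl CLT 2 their log2 fold changes were −0.53 and −0.82, −0.56 and −0.35, and −0.31 and −0.37, in that order. *Sdhb*, the iron-sulfur subunit, was at 128.9 and 77.0 RPKM in Ctrl CLT, and cKO CLT (97.4 and 112) lay between (0.07 ± 0.30), with 73.2 to 89.9 in CLH.

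All 8 genes of complex III had a lower value in cKO CLT, by small amounts and with 0 called (median −0.11, or −0.31 against Ctrl CLT 1 alone and −0.01 against Ctrl CLT 2 alone). *Uqcrh* was at 500.5 and 504.8 RPKM in Ctrl CLT and at 336.3 and 337.5 in cKO CLT (−0.58 ± 0.15; limma, adjusted p = 0.0928), with CLH at 327.7 to 410.0. Its cKO CLT values lay apart from Ctrl CLT but within the range of CLH. *Uqcrq*, a small membrane subunit, was nearest to no difference (−0.02 ± 0.32), at 110.1 and 64.6 RPKM against 73.3 and 95.0. Of the 11 widely expressed complex IV genes, 8 were lower and 3 higher (median −0.13, or −0.31 against Ctrl CLT 1 alone and 0.0051 against Ctrl CLT 2 alone), and 0 were called. The lowest was *Cox6c* (−0.42) and the highest *Cox5a* (0.45), a nuclear-encoded subunit on the matrix side. *Cox5a* was at 112.9 and 68.3 RPKM in Ctrl CLT and at 123.8 and 117.6 in cKO CLT (limma, adjusted p = 0.305).

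The widely expressed members differed between the Ctrl CLT libraries, as genes did in general. Of the 64 genes, 20 (31.3%) differed by more than 1.5-fold between both libraries, near the 34.6% of all genes tested. Within each other group 1 of 64 did. Ctrl CLT 1 was above Ctrl CLT 2 in 50 of the 58 genes, a count without a share over all genes. Against Ctrl CLT 1 alone, cKO CLT was lower in 53 of the 58 genes (median −0.37), and against Ctrl CLT 2 alone in 31 (median −0.01). It was below both in 30 genes, above both in 4, and between them in the other 24. *Cox8a*, the liver-type partner of *Cox8b*, is an example: at 207.8 and 83.2 RPKM in Ctrl CLT, against 128.3 and 146.1 in cKO CLT, its log2 fold change was −0.60 against Ctrl CLT 1 and 0.71 against Ctrl CLT 2. Over the 64 genes, leaving out Ctrl CLT 1 gave 13 called higher and 16 lower (limma, with the lone Ctrl CLT library assumed to vary like the others), leaving out Ctrl CLT 2 gave 3 and 31, and leaving out either cKO CLT library gave 0. Over all genes tested the shares called higher and lower were 31.4% and 38.1% without Ctrl CLT 1, and 29.1% and 23% without Ctrl CLT 2.

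**Figure D3:**
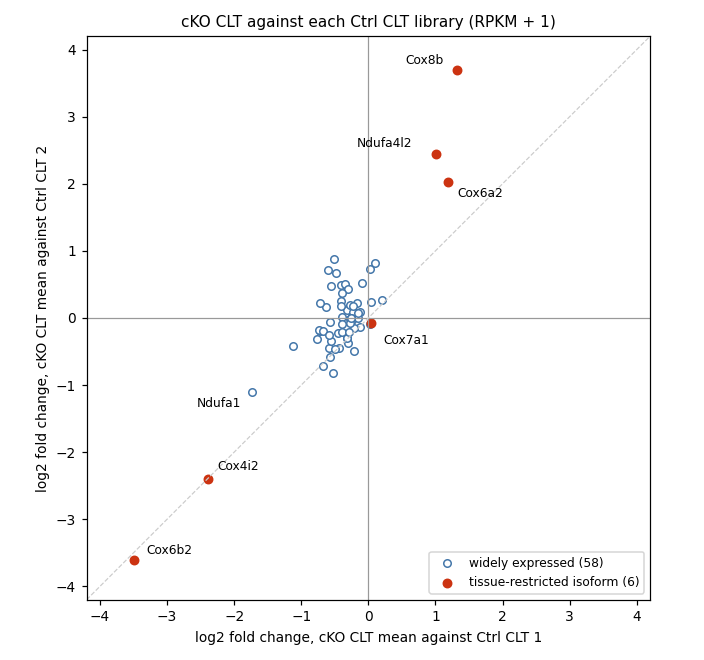
Log2 fold change of RPKM + 1 of the cKO CLT mean against Ctrl CLT 1 (x axis) and against Ctrl CLT 2 (y axis) for the 64 genes, with widely expressed members as open and restricted isoforms as filled points (dashed line, equality). *Cox4i2* and *Cox6b2* lie near the line at the lower left, whereas most widely expressed members lie left of 0 and on both sides of 0 on the y axis.

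The muscle-type isoforms were low in CLH and higher in CLT. *Cox7a1* was at 2.02 to 2.50 RPKM in the 4 CLH libraries, at 23.3 and 25.3 in Ctrl CLT, and at 21.4 and 26.9 in cKO CLT. It was high in all 4 CLT libraries, and cKO and Ctrl overlapped (−0.01 ± 0.18). *Cox6a2* was at 0.0565 to 0.749 RPKM in CLH, 5.91 and 2.85 in Ctrl CLT, against 13.3 and 16.4 in cKO CLT. *Cox8b* was at 0.307 to 1.12 RPKM in CLH, 11.2 and 1.35 in Ctrl CLT, against 27.7 and 31.3 in cKO CLT. For *Cox6a2* and *Cox8b* the cKO CLT libraries were above every other library, and Ctrl CLT 1 was above Ctrl CLT 2. Neither was called in cKO CLT against Ctrl CLT, at 1.61 ± 0.35 for *Cox6a2* (limma, adjusted p = 0.0774) and 2.51 ± 0.85 for *Cox8b* (limma, adjusted p = 0.125). Against Ctrl CLT 1 and Ctrl CLT 2 alone the values were 1.19 and 2.03 for *Cox6a2*, and 1.32 and 3.70 for *Cox8b*.

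*Ndufa4l2* followed the same order, at 2.37 to 3.86 RPKM in CLH, 8.26 and 2.42 in Ctrl CLT, against 16.2 and 19.2 in cKO CLT (1.73 ± 0.53; limma, adjusted p = 0.111), with 1.01 against Ctrl CLT 1 alone and 2.45 against Ctrl CLT 2. Ctrl CLT 2 lay within the CLH range, and Ctrl CLT 1 between it and cKO CLT. Skeletal muscle markers had this order as well: all 15 (among them *Acta1*, *Ckm* and 3 fast myosin heavy chains) were higher in both cKO CLT libraries than in Ctrl CLT, with 0 called, and their sum was 47.8 to 56.5 RPKM in CLH. The 7 fat cell markers summed to 7.92 to 10.8 RPKM in CLH, 256 and 8.42 in Ctrl CLT, against 698 and 643 in cKO CLT, most of it *Fabp4*, while the brown fat marker *Ucp1* was at or under 0.724 RPKM in every library. *Cox7a1* differed from this order, since it was as high in Ctrl CLT 2 as in the other CLT libraries. The part of muscle or fat tissue in the isoform levels was not tested.

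**Figure D4:**
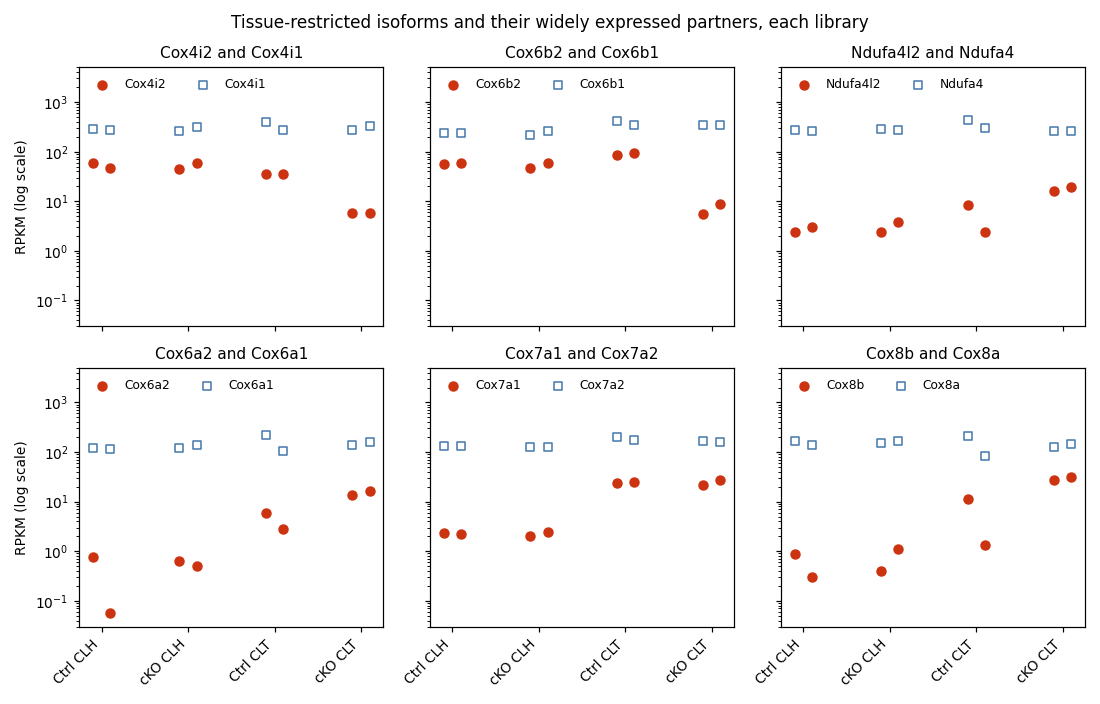
RPKM (y axis, log scale) of 6 restricted isoforms (filled circles) and their widely expressed partners (open squares) in each of the 2 libraries of each group (x axis). *Cox4i2* and *Cox6b2* drop in cKO CLT and *Cox6a2*, *Cox8b* and *Ndufa4l2* are highest there, while the partners stay at or above 83.15 RPKM in every library.

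Set against its partner, each isoform held a small share of the pair, and in cKO CLT some shares were lower and some higher than elsewhere. *Cox6b2* made up 17.4% to 21.8% of the summed RPKM of *Cox6b2* and *Cox6b1* in the 6 libraries other than cKO CLT, and 1.57% and 2.43% in cKO CLT. *Cox4i2* made up 14.4% to 17.1% of its pair with *Cox4i1* in CLH, 7.96% and 11.5% in Ctrl CLT, against 2.07% and 1.71% in cKO CLT. *Cox8b* made up 0.217% to 0.666% of its pair with *Cox8a* in CLH, 17.8% and 17.6% in cKO CLT, and 5.12% and 1.59% in Ctrl CLT. *Cox6a2* reached 8.68% and 9.41% of its pair in cKO CLT against 2.63% and 2.6% in Ctrl CLT, where both libraries had nearly the same share. *Cox7a1* made up 1.6% to 1.94% of its pair with *Cox7a2* in CLH and 10.4% to 14.3% in CLT, and *Ndufa4l2* 5.86% and 6.76% of its pair in cKO CLT against 1.85% and 0.809% in Ctrl CLT. These shares are of RNA per length and not of protein.

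The partners themselves were not called between cKO CLT and Ctrl CLT. *Cox6b1* was at 414.2 and 343.7 RPKM in Ctrl CLT and at 341.3 and 348.7 in cKO CLT (−0.13 ± 0.18), and *Cox4i1* at 402.7 and 267.8, and at 276.7 and 334.2 (−0.11 ± 0.27). *Cox6a1* was at 218.5 and 106.7 RPKM, and at 140.1 and 157.5 (−0.04 ± 0.39), and *Cox7a2* at 199.8 and 173.6, and at 168.0 and 162.0 (−0.17 ± 0.16). *Cox7b*, the partner of the untested *Cox7b2*, was at 129.8 and 122.6 RPKM, and at 108.8 and 103.6 (−0.25 ± 0.14), and *Ndufa4* at 437.6 and 296.7, and at 260.9 and 265.0 (−0.45 ± 0.24). In the 4 CLH libraries *Cox6b1* was at 216.9 to 258.9 RPKM, *Cox4i1* at 262.8 to 314.7 and *Ndufa4* at 263.8 to 281.0. There *Cox6a1* was at 113.8 to 141 RPKM, *Cox7a2* at 124 to 133.5, *Cox7b* at 89.6 to 103.7 and *Cox8a* at 141 to 166.9. In *Cox7a2*, *Cox7b* and *Ndufa4* both cKO CLT libraries were below both Ctrl CLT libraries, and in the others the groups overlapped.

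In the stem cell region the chain showed no change that passed the test between cKO and Ctrl. Of the 64 genes, 41 were higher and 23 lower in cKO CLH, with a median log2 fold change of 0.04 against −0.01 over all genes. With limma 0 were called in either direction, as were 0% and 0% of all genes tested, and 0 were called by voom. The count at an unadjusted p under 0.05 was 6, again without a share over all genes. The groups did not overlap for 18 genes that were higher and 8 that were lower, against 19.9% and 18.8% of all genes. *Uqcrq* was the highest, at 52.4 and 46.6 RPKM in Ctrl CLH, against 63.1 and 71.9 in cKO CLH (0.44 ± 0.10; limma, adjusted p = 0.688), and *Cox5a* the lowest (−0.18). *Cox6b2* (−0.15 ± 0.12) and *Cox4i2* (−0.06 ± 0.19) overlapped between the groups in CLH.

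From CLH to CLT of the Ctrl mice, most of the chain was higher, but not past the test. In 55 of the 64 genes the level was higher in Ctrl CLT, with a median log2 fold change of 0.29, where that of all genes was −0.13. With limma 0 were called in either direction, against 0.00707% higher and 0% lower over all genes, and 0 were called by voom. The count at an unadjusted p under 0.05 was 15, without a share over all genes. The groups did not overlap for 33 genes that were higher and 2 that were lower, against 15.2% and 36.8% of all genes. All 8 complex III genes were higher (median 0.47), as were 30 of 35 complex I and 9 of 11 complex IV genes. *Cox7a1* had the largest difference (2.93 ± 0.15; limma, adjusted p = 0.134). *Cox4i2* was the lowest, 0.60 down on the log2 scale, while *Cox6b2* was 0.65 up. Without Ctrl CLT 1 the median was 0.13 and 2 genes were called higher and 1 lower, where 1.91% and 1.4% of all genes tested were called. Without Ctrl CLT 2 the median was 0.46 and 45 were called higher and 0 lower, against 18.4% and 34.9% of all genes tested.

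In the cKO mice, chain genes were called in both directions between the regions, as genes in general were. Between cKO CLT and cKO CLH, 16 genes were called higher in CLT and 15 lower, where 28.9% and 45.1% of all genes tested were called. The groups did not overlap for 21 genes that were higher and 22 that were lower, against 34.5% and 52.3%. Among the rises were *Cox7a1*, 10.7-fold higher by mean RPKM (log2 fold change 2.95 ± 0.13), and *Ndufa4l2* (2.21 ± 0.17). The largest falls were of *Cox4i2* (−2.94 ± 0.14) and *Cox6b2* (−2.75 ± 0.19), and these 4 genes had limma adjusted p of at most 6.03e-06. The 16 include *Cox8b* and *Cox6a2*, which passed the filter through the CLT libraries and are therefore given only as a description, *Cox8b* at 5 and 12 reads in cKO CLH against 282 and 310 in cKO CLT, and *Cox6a2* at 14 and 10 against 246 and 294.

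Of the widely expressed genes, 12 were called higher and 13 lower in cKO CLT against cKO CLH. They were 5 and 10 of the 35 genes of complex I, and 1 and 2 of the 4 of complex II. In complex III they were 2 and 0 of 8, and in complex IV 4 and 1 of 11. Over all genes tested 28.9% and 45.1% were called, and a difference between the complexes was not tested. *Cox5a* rose most, from 63.5 and 66.6 RPKM to 123.8 and 117.6 (0.88 ± 0.08; limma, adjusted p = 2.27e-05). *Ndufa9* (0.62), a complex I subunit at the joint of both arms, and *Uqcrb* (0.61), which binds ubiquinone in complex III, also rose. *Ndufa2* fell most, from 111.5 and 126.5 RPKM to 61.7 and 72.6 (−0.82 ± 0.11; limma, adjusted p = 1.79e-04), followed by *Sdhd* (−0.64) and *Ndufb4* (−0.64). The balance of rises and falls depended on the scale, since median-of-ratios scaling moved the median of all genes from −0.18 to 0.02. It then gave 27 members called higher and 7 lower (37.2% and 34.5% of all genes tested), and quantile normalization 13 and 24 (30.7% and 41.9%). The genes *Cox7a1*, *Ndufa4l2*, *Cox4i2*, *Cox6b2*, *Cox5a*, *Ndufa2*, *Sdhd* and *Ndufb4* kept their directions under each alternative.

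The effect of cKO differed between CLT and CLH for 7 genes, all lower in CLT than the CLH difference would give. Over all genes tested this interaction called 8.05% higher and 9.58% lower, and of the 64 genes it called 0 higher and 7 lower, with a median of −0.22 against −0.01 over all genes. They were *Cox6b2* (−3.40 ± 0.30), *Cox4i2* (−2.34 ± 0.24), the complex I subunits *Ndufa1* (−1.42), *Ndufb4* (−0.72), *Ndufa5* (−0.55) and *Ndufb6* (−0.51), and *Sdhd* (−0.66). *Ndufb6* was at 61.6 and 62.0 RPKM in the Ctrl CLT libraries, 43.95 and 46.1 in cKO CLT and 52.1 to 56.3 in CLH. In each of the 7, both cKO CLT libraries were below all 6 others. Without Ctrl CLT 1, 11 were called higher and 15 lower, and without Ctrl CLT 2, 3 and 34, the 7 genes being among them in both cases. All genes tested were then called higher and lower in 28.5% and 34.7%, and in 26.6% and 20.1%. Without any one of the other libraries only *Cox6b2* and *Cox4i2* were called.

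Other genes of mitochondrial energy supply were described from lists, as counts only, beside 49.5% higher, 0.0777% called higher and 1.68% called lower over all genes tested. Of 18 genes listed for ATP synthase, the enzyme that uses the gradient built by the chain, 3 were higher and 15 lower in cKO CLT against Ctrl CLT (median −0.13), with 0 called. Their span was from *Atp5g1* (−0.54), of the membrane ring, to *Atp5d* (0.59), of the central stalk. Of 42 assembly factors listed, 26 were found by symbol and 25 were tested. Of these 25, 8 were higher and 17 lower (median −0.18), from *Nubpl* (−0.78) to *Acad9* (1.31), both factors of complex I, again with 0 called. Of 13 citric acid cycle genes 5 were higher, with citrate synthase, *Cs*, the highest (0.65) and *Suclg2* the lowest (−1.08), and 0 were called. The 76 mitochondrial ribosomal genes had 39 higher and a median of 0.03, and the 84 cytosolic ribosomal genes 70 higher and a median of 0.22, with 0 called in both. Against Ctrl CLT 1 alone and Ctrl CLT 2 alone these medians were −0.26 and −0.0086 for ATP synthase, and −0.15 and −0.34 for the assembly factors. They were −0.03 and 0.09 for the mitochondrial ribosome, and 0.11 and 0.29 for the cytosolic ribosome.

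Among 10 regulators of mitochondrial biogenesis, 0 were called. *Ppargc1a*, a coactivator that drives respiratory genes, was at 3.55 and 4.40 RPKM in Ctrl CLT and at 1.01 and 1.19 in cKO CLT, with 1.53 to 1.91 in CLH (−1.24 ± 0.20 SE; limma, adjusted p = 0.0631), with −1.12 against Ctrl CLT 1 alone and −1.37 against Ctrl CLT 2. Both cKO CLT libraries were below all others. The highest of these regulators was *Pprc1*, a related coactivator (0.54). Of 17 glycolysis genes, 10 were higher, and *Ldhb*, a lactate dehydrogenase subunit, was the single one called (−2.77 ± 0.27; limma, adjusted p = 0.0434), with −2.44 and −3.11 against Ctrl CLT 1 and Ctrl CLT 2 alone. *Eno3*, an enolase known from muscle, was the highest (2.05; 1.12 and 2.98). Of 8 hypoxia response genes, 5 were higher and 0 were called, from *Vegfa* (−1.13; −0.73 and −1.54) to *Egln3* (2.81; 1.57 and 4.06). Cytochrome c (*Cycs*) was at −0.39 and *Cyc1*, the cytochrome of complex III, at 0.19, and neither was called. Subunits encoded by mitochondrial DNA were not found under the symbols searched, and so were not analysed here.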

How the data were processed

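RNA-seq of 8 libraries was used, 2 in each of the groups Ctrl CLH, cKO CLH, Ctrl CLT and cKO CLT, taken from the sample labels (where Ctrl is called WT and cKO is called KO). The submitters' processing notes name FastQC 0.72, Trim Galore 0.4.3.1, STAR 2.6.0b-1, featureCounts 1.6.3, DESeq2 2.11.40.2 and mm10. The authors deposited 1 table of RPKM values with a length per gene, and 0 columns of values were left unused. The annotation, the strand setting and the total behind the RPKM are not given in the sources used here, so reads of overlapping genes may be shared or lost. RPKM multiplied by length gave whole reads (within 0.01) for 100% of the values checked, which gave the library totals and the reads behind a value. Intervals and floors would cover counting error only.

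The deposited RPKM were taken to log2 with a pseudocount of 1, and limma 3.58.1 (lmFit, eBayes with a variance trend, two-sided) in R 4.3.3 was run on the 14148 genes that reached an RPKM of 1 in 2 or more of the 8 libraries, with Benjamini-Hochberg adjustment over all of them and a threshold of 0.05. The pseudocount shrinks the fold changes of low genes. Each comparison was fitted in its own 4 libraries, and the interaction of genotype and region over all 8. With 2 libraries against 2, the smallest p of an exact permutation test is 0.333. The p-values measure the spread between these libraries. Shares of genes called are set beside those over all genes tested. The scripts were tested on simulated data. Of the gene names, 26 stood on 69 rows, none of them a chain gene.

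The members, the lists, the settings and the rule for named genes were chosen with earlier results of these data known, so no count over a list is independent support. By that rule, values by library (for CLH as a range) are given for the restricted isoforms and their partners, the Sdh genes, the largest rise and fall and the highest level in complexes I, III and IV, and up to 10 called genes per comparison, and log2 fold changes for the largest rise and fall in pathway lists. The naming of *Cox6c*, *Ndufa9*, *Uqcrb*, *Ndufv2*, *Ndufs7*, *Ndufa11*, *Ndufb2* and *Fabp4* with their values, the exclusion of *Cox4nb*, the split of complex I into core and accessory subunits and the 3 promoter motifs were chosen after the table was seen. Alternatives were pseudocounts of 0.1 and 0.5, no filter, a filter on the mean, median-of-ratios scaling, quantile normalization, a replicate block, a joint fit of all 8 libraries, eBayes made robust or without the trend, voom on recovered reads, and each library left out.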

Additional observations from a re-analysis of the deposited data

Results flagged for a closer look

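For 7 genes of the respiratory chain the difference between cKO and Ctrl was itself different between CLT and CLH (limma, interaction over all 8 libraries, adjusted over all genes tested). All 7 were lower in cKO CLT. Of the 64 genes tested, 7 were called lower and 0 higher, against 9.58% and 8.05% of all genes tested. The count of lower genes was thus near the share over all genes. The difference of the log2 fold changes was −3.40 for *Cox6b2* and −2.34 for *Cox4i2*, both restricted isoforms of complex IV. It was −1.42 for *Ndufa1*, −0.72 for *Ndufb4*, −0.55 for *Ndufa5* and −0.51 for *Ndufb6*, all accessory subunits of complex I, and −0.66 for *Sdhd*, a membrane anchor of complex II. *Cox6b2* and *Cox4i2* stayed past the threshold as each of the 8 libraries was left out in turn, and the other 5 did not when any library other than those of Ctrl CLT was left out. Of the 7, 4 were called under each of median-of-ratios scaling, a replicate block, no variance trend and voom (under the first *Ndufb4*, *Ndufa5* and *Ndufb6* were lost, and under the others *Sdhd*, *Ndufa5* and *Ndufb6*), and 5 without the filter on low values, where *Ndufa1* and *Sdhd* were lost. The groups hold 2 libraries each, too few for a test of single libraries that stand apart.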

How the results depend on the processing

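No setting tried removed the lower level of *Cox6b2* and *Cox4i2* in cKO CLT, whose log2 fold changes ranged from −3.84 to −3.25 and from −2.58 to −2.35, though their adjusted p ran from 0.00014 to 0.17 and from 3.8e-05 to 0.27. The number of respiratory chain genes called between cKO and Ctrl in CLT, 2 by limma within the 4 CLT libraries, was 1 without a filter on low values (where *Cox6b2* was lost), 18 with all 8 libraries in 1 fit and 0 by voom on the recovered reads, and 0 to 34 as each library was left out, where their median log2 fold change ran from −0.334 to −0.0135. Between CLT and CLH in Ctrl, 7 were called in place of 0 with all 8 libraries in 1 fit and 0 to 45 as each library was left out, and the median was 0.46 with median-of-ratios scaling and 0.13 to 0.46 with a library left out. Between the regions in cKO, 20 were called in place of 31 without the filter, and the median was 0.23 with median-of-ratios scaling, −0.11 with quantile normalization and −0.0711 to 0.118 with a library left out. For the interaction of genotype and region, 4 genes were called in place of 7 with median-of-ratios scaling, without the variance trend and by voom, 14 with quantile normalization, and 2 to 37 as each library was left out. Its median was −0.36 with quantile normalization and −0.421 to −0.0575 with a library left out. The cause of these shifts was not tested. In CLH no setting called a gene of the chain.

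The replicate numbers of the labels are not tied to a litter, and same-numbered libraries did not deviate together throughout, with correlations of their deviations from the group means of −0.192 to 0.307 over the 6 pairs of groups. The highest were between CLH and CLT of the same genotype, at 0.307 in cKO and 0.195 in Ctrl. The labels do not say whether CLH and CLT libraries came from the same mice, and the main fits took them as unpaired. A fit with the replicate block called 5 genes in CLT in place of 2 and 4 in place of 7 for the difference between CLT and CLH, and 0 in CLH and 0 between the regions in Ctrl, as without it. Between the regions in cKO it called 40 in place of 31. With the numbers crossed between cKO and Ctrl in CLT, a pairing chosen after seeing the data, 0 were called.

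Several genes near no difference in CLT changed sign, none of them called in the comparison as reported. With median-of-ratios scaling the log2 fold change was 0.041 for *Cox7a1*, 0.014 for *Cox6a1* and 0.038 for *Uqcrq*, and with quantile normalization −0.077 for *Cox8a* and −0.017 for *Sdhb*. With a library left out the values ran from −0.17 to 0.15 for *Cox7a1*, −0.55 to 0.47 for *Cox6a1*, −0.60 to 0.71 for *Cox8a*, −0.40 to 0.18 for *Cox4i1*, −0.26 to 0.0051 for *Cox6b1*, −0.30 to 0.44 for *Sdhb* and −0.40 to 0.37 for *Uqcrq*. The cause was not tested. Of the values of single genes under the alternatives, 494 kept their direction and their side of the threshold, 53 fell short of it, 31 came past it and 18 changed sign. Depth limits the low isoforms, since *Cox6a2* had 1 to 17 reads and *Cox8b* 3 to 12 in the CLH libraries.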
